A study of Homo sapiens with 2 samples.

Results

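The genes described here are 9 members of the GALNT family, GALNT1, GALNT2, GALNT3, GALNT6, GALNT7, GALNT10, GALNT11, GALNT12 and GALNT14, together with C1GALT1. They were chosen by symbol, with the intensities and ratios of these same arrays already known, so every value below is a description and none is a test. All 25 probe sets that the platform annotation pairs with exactly 1 of these symbols were taken, from 41091 such probe sets of 19775 genes. The arrays came from KYSE170-luc, a human esophageal squamous carcinoma line that carries luciferase. One array holds RNA of cells transfected with a SOX17 expression plasmid, SOX17 being a transcription factor of endoderm and endothelium, and the other holds RNA of cells that received an empty vector. Both were collected 12 h after transfection, and the line, the medium and the transfection step were common to both. Each group had a single array and thus no replicate. The spread between cultures is unknown and precision is limited by having so few arrays.

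Mucin-type O-glycosylation begins in the Golgi, where a GALNT enzyme moves N-acetylgalactosamine (GalNAc) from its nucleotide sugar UDP-GalNAc onto a serine or threonine of a passing protein. The product, the Tn antigen, is usually covered at once. C1GALT1 adds galactose to it and makes core 1, the T antigen, so C1GALT1 extends these glycans and does not start them. Some GALNT enzymes act on bare peptides, while others prefer peptides that already carry a GalNAc. Exposed Tn and T antigens are well known on carcinoma cells, and mucins lubricate and shield the esophageal surface.

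Of the 10 genes 9 were measured, meaning that the probe set standing for the gene lay at or above an intensity of 95 on both arrays, and 8 of the 9 were lower after SOX17 than after empty vector transfection. The differences were small. The median log2 ratio, SOX17 over empty vector, was -0.30 over the 9 genes, and it was 0.03 over all 10034 measured genes. Log2 ratios ran from -0.50 for GALNT6 to 0.12 for GALNT2. Of all measured genes 45.4% had a ratio below 0. None of the 9 genes was 1.5-fold higher or 1.5-fold lower by the probe set that stands for it, while 3.78% of measured genes were at least 1.5-fold higher and 3.19% at least 1.5-fold lower. At 2-fold the shares of all measured genes were 0.419% higher and 0.329% lower, and again no member was among them.

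The floor of 95 is the 60th percentile of the pooled intensities. Each gene is represented by whichever of its probe sets was brightest on average (log2 scale). The other probe sets of each member are given beside it. For genes of the related lists a range over measured probe sets is given for only some. Intensities of different probe sets are not comparable as levels, since each hybridises with its own strength, so no order of abundance among the genes is given. The error of 1 ratio was taken from how far 2 probe sets of 1 gene disagreed. Its SD on the log2 scale was 0.38 in the lowest tertile of intensity, 0.28 in the middle and 0.19 in the highest. It covers disagreement between probe sets within these arrays only, and real differences between transcripts of a gene may add to it. Error shared by the probe sets of a gene is left out, as is the spread between cultures.

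The arrays had equal trimmed means of 500.1, and 40.4% of probe sets on the SOX17 array and 39.6% on the empty vector array lay at or above the floor. The 24 probe sets of the poly-A controls, transcripts added to the RNA before labelling, were all higher on the SOX17 array, with a median log2 ratio of 0.57. The part of this shift in the ratios was not tested. Control probe sets at the 3′ and 5′ ends of 2 transcripts were also compared. The 3′/5′ ratio of GAPDH was 1.18 on the SOX17 array and 1.16 on the empty vector array. That of ACTB was 10.4 and 11.6, so signal fell strongly towards the 5′ end of ACTB on both arrays. Its part in the disagreement between probe sets of a gene was not tested. SOX17 itself read 83.8 and 6.5 on its 2 probe sets on the SOX17 array, against 4.5 and 19.1 on the empty vector array, all below the floor, so these values do not check the labels. Squamous markers were present, with 5 of 5 that had a probe set measured, while 0 of 4 leukocyte and 0 of 4 endothelial markers were measured. Of 5 fibroblast markers 1 was, the collagen gene COL1A1, at 845.1 on the SOX17 array and 780.2 on the empty vector array.

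The stretches upstream of 4 members are shown because these genes had the lowest ratios among members with a promoter window in RefSeq, GALNT6 having no entry. Each is the 250 bases before an annotated transcription start, written 5′ to 3′ on the strand of the gene. GALNT1 has 3 windows and GALNT14 has 2, of which the first is shown. Capitals mark every match, on either strand, to the SOX core ACAAT, the CCAAT box CCAAT, the GC box GGGCGG and the E-box CACCTG.
GALNT1 (GRCh38.p14, chr18:35580672-35580921, plus strand): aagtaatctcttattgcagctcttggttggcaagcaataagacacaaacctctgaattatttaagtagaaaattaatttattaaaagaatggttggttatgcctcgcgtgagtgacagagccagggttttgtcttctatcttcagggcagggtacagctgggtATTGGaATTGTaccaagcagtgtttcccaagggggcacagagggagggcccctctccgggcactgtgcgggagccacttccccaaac
GALNT3 (GRCh38.p14, chr2:165794248-165794497, minus strand): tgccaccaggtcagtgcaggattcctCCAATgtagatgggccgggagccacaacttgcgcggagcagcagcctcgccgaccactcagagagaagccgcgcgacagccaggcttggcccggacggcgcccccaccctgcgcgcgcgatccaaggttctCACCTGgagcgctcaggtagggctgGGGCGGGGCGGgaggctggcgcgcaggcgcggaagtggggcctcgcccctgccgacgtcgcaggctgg
GALNT14 (GRCh38.p14, chr2:31138441-31138690, minus strand): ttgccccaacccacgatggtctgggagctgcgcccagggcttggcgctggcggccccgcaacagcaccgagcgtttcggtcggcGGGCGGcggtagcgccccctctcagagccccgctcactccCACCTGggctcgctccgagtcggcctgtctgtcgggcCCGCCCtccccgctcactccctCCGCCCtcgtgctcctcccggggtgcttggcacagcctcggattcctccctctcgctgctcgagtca
C1GALT1 (GRCh38.p14, chr7:7182294-7182543, plus strand): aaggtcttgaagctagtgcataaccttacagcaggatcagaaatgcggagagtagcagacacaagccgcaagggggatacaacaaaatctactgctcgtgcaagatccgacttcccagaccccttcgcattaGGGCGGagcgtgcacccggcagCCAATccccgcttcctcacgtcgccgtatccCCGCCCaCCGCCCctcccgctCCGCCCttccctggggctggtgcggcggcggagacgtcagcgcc

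The SOX core, the short sequence that SOX proteins share in their sites, occurred in 1 of the 12 windows of the 9 genes with an entry. That match is in the GALNT1 window shown, from base 81 to base 77 before the start, where it reads ATTGT. Just upstream of it, at bases 87 to 83, lies a CCAAT box. The same core stood in 24.6% of all 35116 windows and in 1940 of the 12125 windows of measured genes. Measured genes with the core in a window had a median log2 ratio of 0.04 (1679 genes), and those without it had 0.03 (6662 genes). The GC box stood in 9 of the 12 windows, against 64.1% of windows of measured genes. The number of matches in a window ran up to 5, in the third GALNT1 window, and the windows of C1GALT1, GALNT10 and GALNT12 held 4 each. The CACCTG E-box stood in 3 windows, those of GALNT3, GALNT14 and GALNT12, against 15.5% of windows of measured genes. No matches of different motifs overlapped in these windows. The median GC content was 72.0% over the 12 windows and 58.0% over all windows. No median is given for windows of measured genes alone. The choice can matter, since the GC box stood in 42.6% of all windows. A match is only a match of letters, and no match says only that these letters are not in this window.

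**Figure D1:**
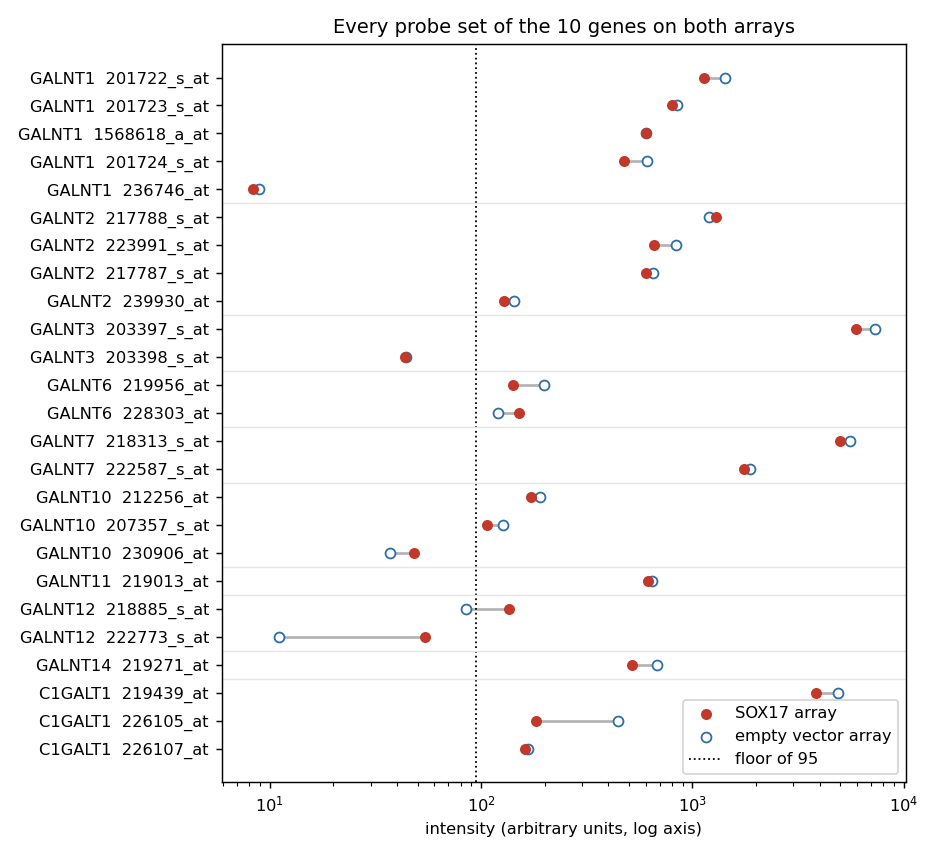
Intensity (log axis) of all 25 probe sets of the 10 genes on the SOX17 array (filled) and the empty vector array (open), with the floor of 95 dotted. Most filled points lie left of their open partner, and both probe sets of GALNT12 lie right of it.

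Among the enzymes that can start on bare peptides, GALNT1, a broadly expressed isoform, read 1139.8 on the SOX17 array and 1425.5 on the empty vector array, a log2 ratio of -0.32. It had 3 more measured probe sets, which read 797.8, 602.7 and 473.7 on the SOX17 array, against 850.2, 604.1 and 606.7 on the empty vector array. All 4 were lower on the SOX17 array, but 1 of them by almost nothing, and the log2 ratios spanned -0.36 to -0.003. The fifth GALNT1 probe set read 8.3 (SOX17) and 8.9 (empty vector), below the floor on both arrays. The 4 measured probe sets spanned 0.35, less than the median span of 0.55 among 440 genes with as many measured probe sets.

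GALNT2, which glycosylates several lipoprotein regulators, was the 1 measured member with a positive ratio. Its representing probe set read 1297.2 on the SOX17 array and 1196.2 on the empty vector array, a log2 ratio of 0.12. Its other 3 probe sets were lower on the SOX17 array, at 655.0, 602.8 and 127.9, against 836.0, 651.5 and 143.8 on the empty vector array. Their log2 ratios were -0.35, -0.11 and -0.17, so the sign for GALNT2 depends on the probe set. The mean over all 4 was -0.13.

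GALNT3, known for glycosylating the phosphate hormone FGF23 and so shielding it from cleavage, read 5935.1 on the SOX17 array and 7327.0 on the empty vector array. The log2 ratio of -0.30 was 1.61 times the SD of 1 ratio at that intensity. Its second probe set read 43.7 (SOX17) and 44.3 (empty vector), below the floor on both arrays. GALNT3 thus rests on 1 measured probe set. Of measured genes within 0.5 log2 units of its intensity, 9.2% had a ratio as low.

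GALNT6, the closest relative of GALNT3 and known from breast carcinoma, had the lowest ratio of the 9, and its 2 probe sets differed in sign. One probe set read 141.2 on the SOX17 array and 199.0 on the empty vector array, a log2 ratio of -0.50. The other read 151.9 with SOX17 and 120.4 with empty vector, a log2 ratio of 0.34. Both lay in the lowest tertile of intensity, where the SD of 1 ratio was 0.38. They differed by 0.83, and 5.5% of 2754 genes with 2 measured probe sets differed as much. The mean over both was -0.08.

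GALNT11, which glycosylates NOTCH1 and the linkers of the LDL receptor family, had 1 probe set, at 613.3 on the SOX17 array and 640.7 on the empty vector array. Its log2 ratio of -0.06 was 0.22 times the SD of 1 ratio. GALNT14, which glycosylates the TRAIL death receptors, also had 1 probe set and read 518.3 on the SOX17 array and 679.1 on the empty vector array. Its log2 ratio of -0.39 was 1.39 times the SD, and 9.3% of all measured genes had a ratio as low. With a single probe set neither ratio has a second reading on these arrays.

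GALNT7, GALNT10 and GALNT12 prefer peptides that already carry a GalNAc. GALNT7 read 5017.5 and 1754.4 on its 2 probe sets on the SOX17 array, against 5544.0 and 1877.1 on the empty vector array. The log2 ratios of -0.14 and -0.10 differed by 0.05, and 90.2% of genes with 2 measured probe sets differed by as much or more. GALNT10 read 171.9 and 106.7 on the SOX17 array, against 190.9 and 126.7 on the empty vector array, with log2 ratios of -0.15 and -0.25. Its remaining probe set was below the floor, at 48.2 on the SOX17 array and 37.1 on the empty vector array. For both genes every measured ratio was below 0 and smaller than the SD of 1 ratio at its intensity.

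GALNT12, known for its link to colorectal cancer, was the member not measured. Its probe sets read 135.2 and 54.0 on the SOX17 array, against 85.1 and 11.1 on the empty vector array. Both were higher on the SOX17 array, and 1 reading of the 4 reached the floor. No fold is given, since the empty vector array was below the floor on both probe sets.

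C1GALT1, the core 1 galactosyltransferase, was lower on the SOX17 array on all 3 of its probe sets, by very different amounts. The representing probe set read 3854.8 on the SOX17 array and 4890.6 on the empty vector array, a log2 ratio of -0.34, which was 1.82 times the SD of 1 ratio at that intensity. The second read 182.9 with SOX17 and 442.7 with empty vector, a log2 ratio of -1.28. The last read 161.1 with SOX17 and 166.9 with empty vector, a log2 ratio of -0.05. The second probe set was the 1 of the members' 20 measured probe sets to pass 1.5-fold or 2-fold in either direction. Among all measured probe sets, 4.61% passed 1.5-fold downwards and 3.96% upwards, while 0.507% passed 2-fold downwards and 0.403% upwards. The ratios spanned 1.22, and 3.0% of 1185 genes with 3 measured probe sets spanned as much. The mean over the 3 was -0.56.

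**Figure D2:**
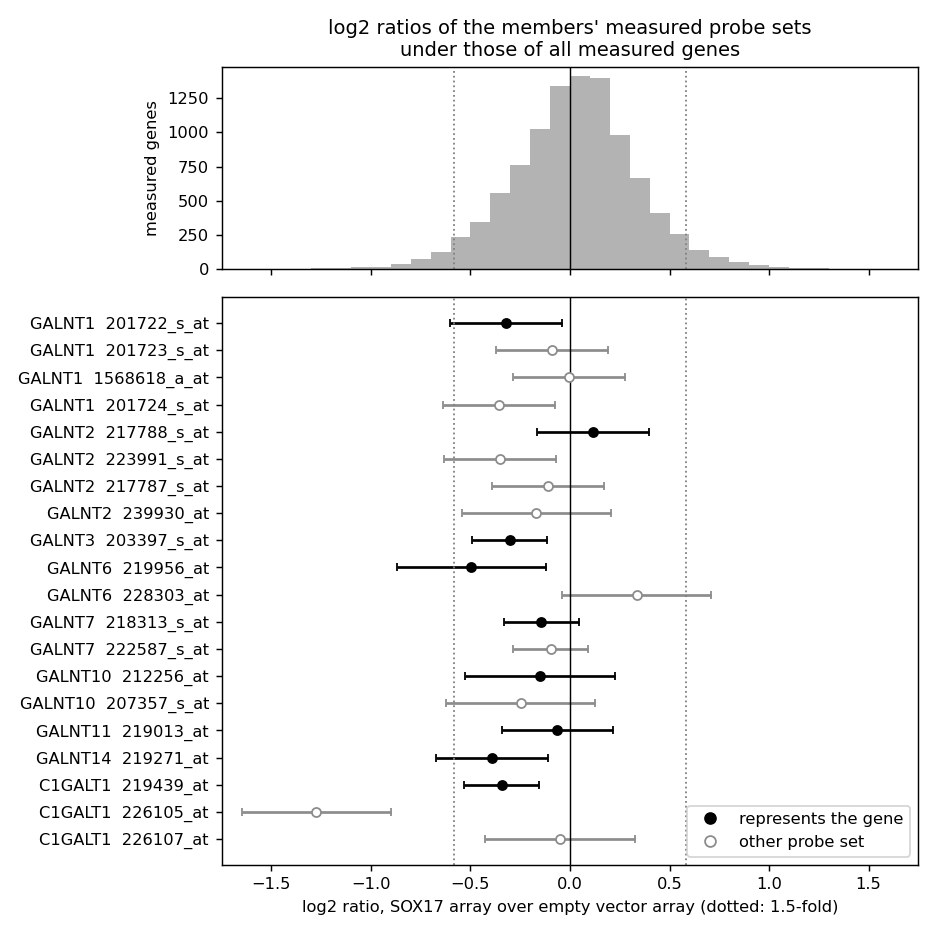
The upper panel counts the 10034 measured genes by log2 ratio, SOX17 over empty vector (the outermost bins hold all values beyond them), and the lower panel shows the 20 measured probe sets of the members with bars of 1 SD of a single ratio at that intensity. Dotted lines mark 1.5-fold; 18 of the 20 points lie below 0, as do 48.9% of all measured probe sets, and 1 probe set of C1GALT1 lies far from the other 2.

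Over all members, 18 of 20 measured probe sets were lower on the SOX17 array, against 48.9% of all 17364 measured probe sets that are paired with 1 gene. These are not independent readings, since several share a gene. Of the 6 members with more than 1 measured probe set, GALNT1, GALNT7, GALNT10 and C1GALT1 were below 0 on every one, while GALNT2 and GALNT6 had both signs. Among all 4574 genes with several measured probe sets 25.5% were below 0 on every one. No member was above 0 on every measured probe set.

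The chaperone that C1GALT1 needs for folding, C1GALT1C1 (COSMC), differed little between the arrays. It read 3262.7 on the SOX17 array and 3116.5 on the empty vector array, a log2 ratio of 0.07, with its other probe set below the floor. That ratio was 0.35 times the SD of 1 ratio at that intensity, so its sign is not readable. C1GALT1C1 was named here as the partner of C1GALT1, after its values were seen.

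Of 11 further GALNT family genes 10 had a probe set of their own and 2 were measured, GALNT5 and GALNT18. GALNT5 read 1274.8 on the SOX17 array and 1663.6 on the empty vector array, a log2 ratio of -0.38, and its 5 measured probe sets ran from -1.08 to 0.02. GALNT18 read 346.8 with SOX17 and 420.3 with empty vector, a log2 ratio of -0.28, but 0.47 on its second probe set. The other 8, GALNT8, GALNT9, GALNT13, GALNT15, GALNT16, GALNT17, GALNTL5 and GALNTL6, lay below the floor on both arrays. Their representing probe sets had values from 8.0 to 91.9 on the SOX17 array and from 5.1 to 89.9 on the empty vector array.

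The enzymes that extend and cap these glycans went both ways, with 5 of 10 measured genes above 0 and 5 below. Their median log2 ratio was 0.03, while 45.4% of all measured genes were below 0. ST6GALNAC2, which adds sialic acid to the GalNAc of O-glycans, read 295.8 on the SOX17 array and 143.7 on the empty vector array. Its log2 ratio of 1.04 made it the 1 gene of the listed pathway past 2-fold by its representing probe set. It had 1 measured probe set. Probe sets of C1GALT1, GALNT5 and SLC35A3 that do not represent their genes passed 2-fold downwards. Of all measured genes 0.419% were at least 2-fold higher and 0.329% at least 2-fold lower. ST6GALNAC4, which caps core 1 already sialylated on galactose, read 98.9 with SOX17 and 155.1 with empty vector, a log2 ratio of -0.65, with -0.47 on its other probe set. Its SOX17 reading lay just above the floor of 95. The representing probe sets of ST6GALNAC2 and ST6GALNAC4 lay in the lowest tertile of intensity, where the SD of 1 ratio was 0.38. ST6GALNAC5, known for gangliosides, had a log2 ratio of 0.27, and the galactosyltransferase B4GALT1 had -0.36, with 3 probe sets from -0.36 to 0.79.

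Of the genes that supply nucleotide sugars 10 of 13 measured were above 0, and their median log2 ratio was 0.09. Of all 10034 measured genes 5474 were above 0, and the median was 0.03. SLC35D1, a transporter of UDP-GalNAc and UDP-glucuronic acid, read 1241.3 on the SOX17 array and 1004.6 on the empty vector array, a log2 ratio of 0.31. The UDP-galactose transporter SLC35A2 had a log2 ratio of 0.26 and UGP2, which makes UDP-glucose, of 0.22. The UDP-GlcNAc transporter SLC35A3 went lower, at 3717.6 on the SOX17 array and 4684.2 on the empty vector array. Its log2 ratio was -0.33, and its 3 probe sets ran from -1.06 to -0.14. None of the 13 passed 1.5-fold by its representing probe set. Of all measured genes 3.78% were at least 1.5-fold higher and 3.19% at least 1.5-fold lower.

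Of the proteins known to carry mucin-type O-glycans 12 of 26 with a probe set were measured, 4 above 0 and 8 below. Their median log2 ratio was -0.03. Of all measured genes 45.4% were below 0, with a median of 0.03. The sialomucin PODXL had a log2 ratio of 0.52, at 699.6 on the SOX17 array and 488.7 on the empty vector array. NOTCH1 had -0.49, at 288.0 with SOX17 and 404.1 with empty vector. FN1 had 0.33, with 4 probe sets from -0.05 to 0.62, and MUC20 had 0.29. Of the 13 mucin genes with a probe set, MUC1 and MUC20 were measured and 11 lay below the floor on both arrays, among them the secreted gel formers MUC2, MUC5AC, MUC5B and MUC6.

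The last lists hold enzymes of other kinds of glycosylation. Their counts stand beside 45.4% of all measured genes below 0. Of 9 measured Golgi enzymes of N-glycan processing 5 were below 0 (median -0.04 on the log2 scale), with MAN1A2 at -0.37, MAN2A2 at 0.31, MAN2A1 at -0.24 and MGAT2 at 0.21. Enzymes that start other kinds of protein O-glycan had a median of 0.003, with 3 of 7 measured genes below 0. Among them were POMT2, of O-mannosylation, at -0.55, EOGT at -0.32, XYLT2, which starts glycosaminoglycan chains, at -0.28 and OGT at 0.17. The 5 measured probe sets of OGT ran from -0.79 to 0.25, so its sign depends on the probe set. Those of XYLT2 ran from -0.81 to -0.28 and those of POMT2 from -0.69 to -0.55. The median of these starters depended on the floor and on the probe sets. With a floor at the 50th percentile it was -0.14, the members' median was -0.23 and that of all genes was 0.04. Without a floor it was -0.28, the members' median was again -0.23 and that of all genes was 0.08. With the mean over probe sets it was -0.17, the members' median was -0.19 and that of all genes was 0.02. Whether the median of the 9 members differs from those of these lists was not tested, since 1 array per group allows no test.

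**Figure D3:**
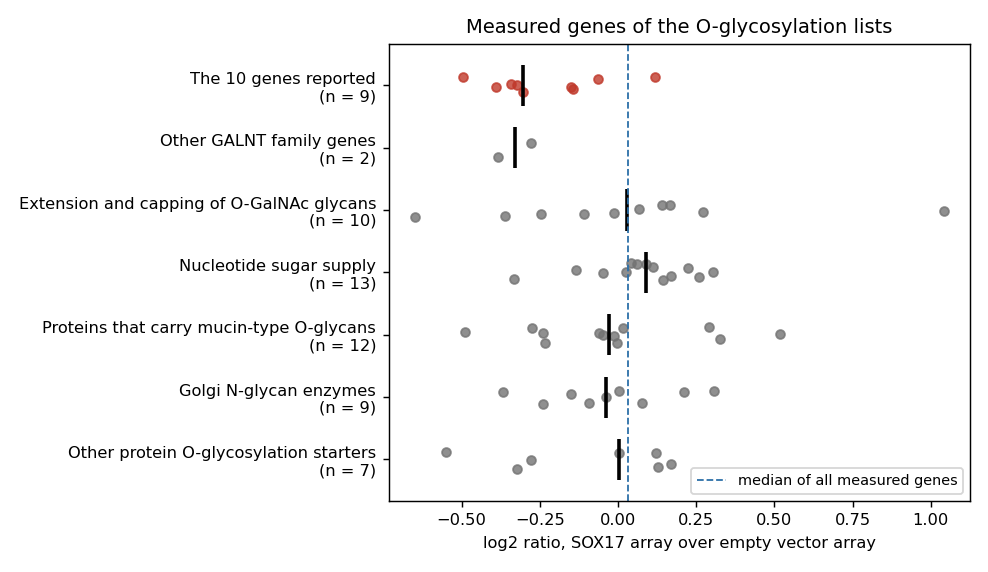
Log2 ratio, SOX17 over empty vector, of each measured gene (points, with vertical scatter for legibility) in the members and 6 related lists, with list medians as bars and the median of all measured genes dashed. The members' median is -0.30, and the lists outside the GALNT family have medians from -0.04 to 0.09.

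The members' signs held under changes of scaling. GALNT1 had log2 ratios of -0.33, -0.29 and -0.30 after centring, quantile normalization and loess, and GALNT14 had -0.40, -0.38 and -0.38. The choice of probe set mattered more. Averaged over measured probe sets, all 9 members were below 0, as were 47.0% of all measured genes. GALNT6 nearly reached 0 and the members' median was -0.19. Suffixes _x_at and _s_at mark probes that may match more than 1 transcript. When these probe sets were left out, GALNT3 and GALNT7 had no measured probe set, GALNT1 had a log2 ratio of -0.003 and the median was -0.17 over 7 members.

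**Figure D4:**
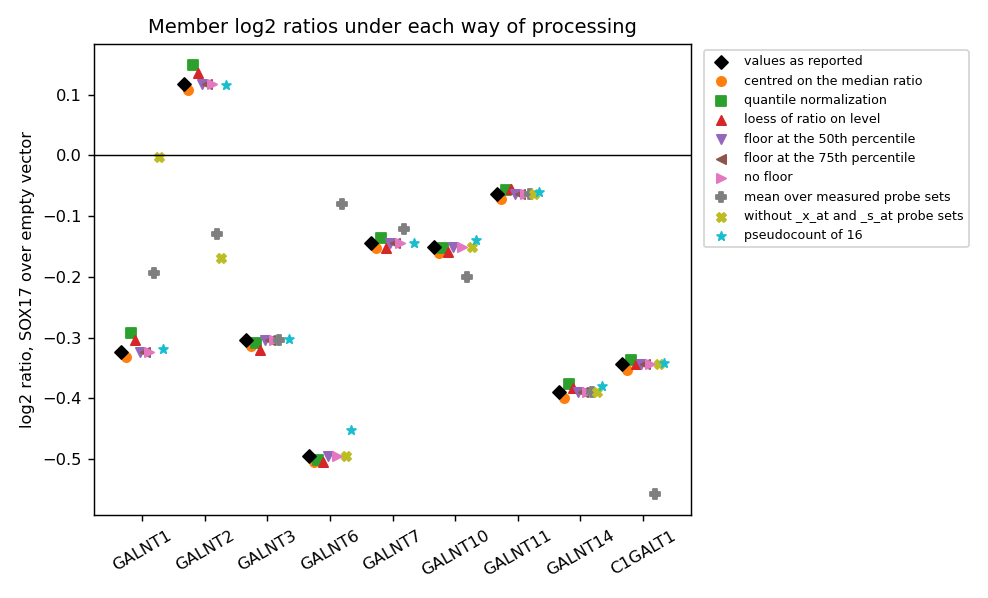
Log2 ratio, SOX17 over empty vector, of each of the 9 measured members under each way of processing; GALNT12 is not shown. Points of a gene nearly coincide except for those that average or leave out probe sets, which move GALNT1, GALNT2, GALNT6 and C1GALT1.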

How the data were processed

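RNA of either group was hybridised as biotinylated cRNA to Affymetrix arrays, per the labels' protocols. The deposited values are linear intensities, with a value per probe set on each array. GCOS is the tool that the authors used, per the submitters' processing notes, and the algorithm and settings are not given in the sources used here. After trimming 2% of values at either end both columns had the same mean, so by the values they were already scaled, and they were used as they are.

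Of 54675 probe sets, 62 controls, 1801 paired with several genes and 11721 paired with none were not assigned to a single gene. Symbols needed 0 updates against RefSeq. Log2 ratios, SOX17 over empty vector, were taken per probe set, with no pseudocount. A probe set is measured when both values reach the floor. With 1 array per group no p-value was computed. The SD of 1 ratio is the root mean square difference in log2 ratio between the 2 brightest measured probe sets of a gene, divided by the square root of 2, over 4574 genes. The calculations were tested on simulated data. Promoter windows came from RefSeq (GRCh38.p14), which holds 12 for 9 of the 10 genes. No genome build belongs to the intensities.

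The members, the lists and the settings were chosen with earlier results of these data known. Besides the members, the text names SOX17 and, of each list, up to 4 measured genes with the largest absolute log2 ratio. Genes named outside this rule are C1GALT1C1, the unmeasured GALNT genes, FGF23 (as a substrate, with no value), the marker COL1A1, MUC1, MUC2, MUC5AC, MUC5B and MUC6. The controls GAPDH and ACTB are also named outside it, for their 3′/5′ ratios. With 2 arrays no gene can be ranked by likeness of pattern, so none is named for it. Python 3.11.15, numpy 2.4.6, pandas 2.3.3 and statsmodels 0.14.6 were used. The alternatives were centring, quantile normalization, loess (span 0.4), a floor at the 50th or the 75th percentile, no floor, the mean over probe sets, leaving out _x_at and _s_at probe sets, and a pseudocount of 16.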

Additional observations from a re-analysis of the deposited data

How the results depend on the processing

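No paired analysis was possible because each group has 1 array. All settings were planned, but with earlier results of these data known. The count of members below 0 was 8 of 9. It was 8 of 10 with the floor at the 50th percentile or none, 6 of 7 with the floor at the 75th percentile, 7 of 7 without _x_at and _s_at probe sets and 9 of 9 with the mean over probe sets. Of all measured genes 45.4% were below 0 in the main setting, 44.9% and 46.5% with the floor at the 50th and 75th percentile. The share was 43.4% with no floor, 48.6% without _x_at and _s_at probe sets and 47.0% with the mean. The members' median log2 ratio of -0.30 moved to -0.19 with the mean over probe sets and -0.17 without _x_at and _s_at probe sets, and GALNT2 then turned to -0.13 and -0.17. GALNT1 was -0.003 without those probe sets. With the mean, GALNT6 was -0.08 and C1GALT1 -0.56. With a floor at the 50th percentile or none, 1 of 10 members, GALNT12, passed 1.5-fold higher. Over all 10034 measured genes, 379 were 1.5-fold higher and 320 lower on the SOX17 array. With a floor at the 75th percentile there were 108 higher and 135 lower of 7562 genes, and with none 4238 higher and 2880 lower of 19775. At the 50th percentile 670 were higher and 477 lower of 11310 genes. At 2-fold, 42 were higher and 33 lower. There were 125 higher and 82 lower with the floor at the 50th percentile, 7 higher and 9 lower at the 75th, and 2811 higher and 1874 lower with none. The pseudocount left 27 higher and 24 lower. Of list medians, that of the extension and capping enzymes turned to -0.013 with the floor at the 75th percentile and was 0.13 with none. Nucleotide sugar supply turned to -0.047 without _x_at and _s_at probe sets. The N-glycan enzymes turned to 0.075 with no floor and 0.004 with the mean. Starters of other O-glycans turned to -0.006 when centred, -0.14 with the floor at the 50th percentile, -0.28 with none and -0.17 with the mean, and were 0.13 without _x_at and _s_at probe sets. The further GALNT genes had -0.12 with no floor. The cause of these moves was not tested.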
